A study of Zea mays with 6 samples.

Results

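A set of 6 genes was followed by RNA sequencing in very young maize ears, at a stage before kernels form: the sucrose synthase genes sh1 (Zm00001d045042) and sus1 (Zm00001d047253), the ADP-glucose pyrophosphorylase genes sh2 (Zm00001d044129) and bt2 (Zm00001d050032), the granule-bound starch synthase gene wx1 (Zm00001d045462) and the debranching enzyme gene su1 (Zm00001d049753). They were chosen by identifier from the 45578 genes of the deposited count table, and all 6 were in it. The choice was made with earlier results of these data known. The names came with the identifiers from the list that defined the set, since neither the count table nor the reference table of RefSeq genes pairs names with these identifiers.

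Sucrose arriving in a growing organ can be split by sucrose synthase into fructose and UDP-glucose, which feeds cell wall and starch synthesis. ADP-glucose pyrophosphorylase, an enzyme of large and small subunits, then makes ADP-glucose, the sugar donor of starch. Granule-bound starch synthase builds the amylose part of starch, and isoamylase-type debranching enzymes trim the branched part. These genes are best known in maize from kernel mutants (shrunken, brittle, waxy and sugary), whose endosperm holds altered starch.

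The series measured ears of at most 0.5 cm from 3 genotypes with 2 libraries each: wild type, 1 line edited with CRISPR and labelled as an RHW1 knockout (rhw1-1), and 1 line labelled as overexpressing RHW1 (OE#1). The series title places RHW1 in the control of husk leaf width. The labels used here do not give the inbred background, the edited sequence, the promoter of the overexpression line or plant age. Nor do they say whether replicate libraries stand for separate plants, so p-values measure only the spread between these libraries. In the test used, the spread assigned to a gene came mostly from all genes and not from its own counts. Total counts ranged from 21094445 to 23999698 reads per library. The libraries of each genotype differed by more than sampling of reads gives (chi-square divided by its degrees of freedom, 2.23 to 2.63), and each was kept as a library of its own. The level of RHW1 was not analysed here, and RHW1 was not among the names looked up. Markers of young ear, endosperm and leaf were not analysed either, because 0 of 23 marker names fixed by symbol occurred in the count table. Of 37 other names of the sucrose and starch pathway, 0 occurred there. The genotype and tissue labels were therefore not checked.

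Levels are given in CPM, a unit in which reads are divided by the depth of their library after TMM scaling, and are compared between libraries for 1 gene at a time, since no transcript lengths were used. All 6 genes passed the filter on low counts. A gene was called changed when its p-value from edgeR's quasi-likelihood test, adjusted by the Benjamini-Hochberg method over 22947 tested genes, was under 0.05. As whole ears were sequenced, fewer cells of a type and less RNA per cell cannot be told apart.

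In the overexpression line 5 of the 6 genes were called against wild type, sus1 and bt2 higher and sh1, sh2 and su1 lower, and wx1 was not called. Of all tested genes 29.2% were called in this comparison, 15.3% higher and 13.9% lower. In the knockout 1 of the 6 genes was called, sh1, which was lower; 8.52% of all tested genes were called there, 4.04% higher and 4.48% lower. Between overexpression and knockout 4 genes were called, sus1 and bt2 higher and sh2 and su1 lower in overexpression, against 26.7% of all tested genes, 14.1% higher and 12.6% lower. The calls of sus1 held under each of the 14 alternative settings tried. That of sh2 against wild type did not hold under most of them.

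**Figure D1:**
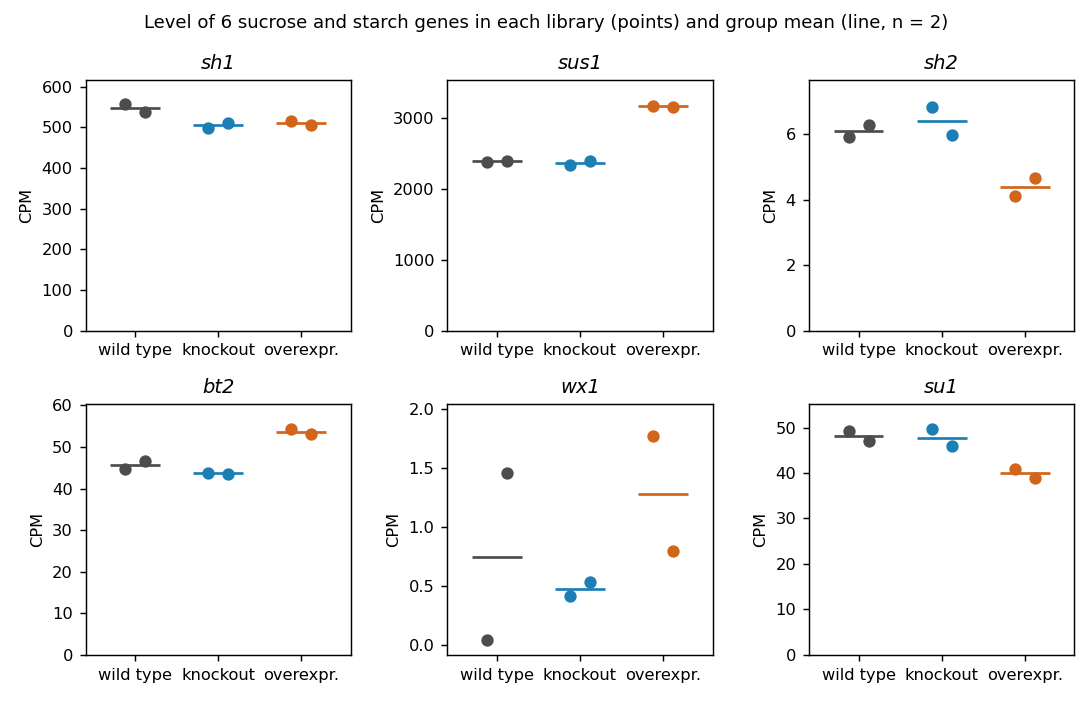
Level of each gene in CPM (vertical axes, linear) in the 2 libraries of each genotype (points), with the group mean (line). Both overexpression libraries lie above the other 4 for sus1 and bt2 and below them for sh2 and su1; both wild-type libraries lie highest for sh1; and wx1 is at 0.0432 and 1.46 CPM in wild type alone.

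The sucrose synthase gene sus1 was counted 55159 and 54062 times in the wild-type libraries, 56100 and 53357 times in the knockout and 66275 and 75095 times in overexpression. In CPM these were 2383 and 2387, 2335 and 2393, and 3173 and 3158. Both overexpression libraries stood above all others, while the knockout libraries enclosed those of wild type. The level rose in overexpression to a mean of 3166 ± 11.0 CPM, from 2385 ± 2.89 CPM in wild type (both SD, n = 2), with a log2 fold change of 0.41 ± 0.02 (SE; edgeR adjusted p = 3.21e-22), or 1.33-fold with a 95% interval of 1.30 to 1.36. Against the knockout, at 2364 ± 40.8 CPM (SD, n = 2), the overexpression level was 1.34-fold higher (interval 1.31 to 1.37, adjusted p = 1.52e-22, edgeR). Knockout and wild type were not distinguished for sus1 (log2 fold change -0.01, 95% interval -0.04 to 0.02, adjusted p = 0.708, edgeR), so a knockout change larger than that interval was not seen.

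By number of reads, with no account of gene length, sus1 was the 5th gene of the table in both wild-type libraries and the 4th in both knockout libraries. It was the 1st in both overexpression libraries. The 20 genes with the most reads over all libraries included 5 called higher and 10 called lower in overexpression against wild type. Their log2 fold changes ran from -0.67 to 0.41, and that of sus1 was the highest of the 20. In the knockout 0 of these 20 were called higher and 15 lower, with log2 fold changes from -0.34 to -0.01, and sus1 again had the highest value. When tested genes are split by expression into 4 groups of equal size, 163 of the 5737 genes in the highest group had a higher log2 fold change than sus1 in overexpression. Of that highest group, 30.8% were called higher and 21.4% lower in overexpression against wild type. In the knockout against wild type 10.4% of it were called higher and 9.55% lower.

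The other sucrose synthase gene, sh1, which is known for its expression in developing endosperm, drew 12924 and 12174 reads from the wild-type libraries, 11998 and 11417 in the knockout and 10761 and 12005 in overexpression. These were 558 and 537 CPM, 499 and 512 CPM, and 515 and 505 CPM. Both wild-type libraries stood above the other 4, by a small margin, and the knockout and overexpression libraries overlapped. The level fell in the knockout to a mean of 506 ± 8.91 CPM, from 548 ± 14.7 CPM in wild type (both SD, n = 2), with a log2 fold change of -0.12 ± 0.03 (SE; edgeR adjusted p = 0.0021), or 0.923-fold. In overexpression it was 510.04 ± 7.38 CPM (SD, n = 2), with a log2 fold change from wild type of -0.10 ± 0.03 (SE; edgeR adjusted p = 0.0017). Both comparisons used the same wild-type libraries. Without wild type replicate 1, the higher of the pair, neither call held: the log2 fold changes became -0.09 (adjusted p = 0.112) and -0.07 (adjusted p = 0.0815), and the knockout call also missed the threshold without knockout replicate 1 (adjusted p = 0.0516). Overexpression and knockout were not distinguished for sh1 (log2 fold change 0.01, 95% interval -0.04 to 0.06, adjusted p = 0.766, edgeR).

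The reads of both sucrose synthase genes together came to 2941 and 2924 CPM in wild type, to 2834 and 2905 CPM in the knockout and to 3689 and 3663 CPM in overexpression. Overexpression thus stood above the others in the sum, although sh1 alone was lower there than in wild type. Within a library, which needs no scaling, there were 4.27 and 4.44 reads of sus1 per read of sh1 in wild type, 4.68 and 4.67 in the knockout and 6.16 and 6.26 in overexpression. The 3 genotypes did not overlap in this ratio. How often ratios of other genes do so was not counted. Of single tested genes, 49.2% did not overlap in CPM between knockout and wild type. It is a ratio of reads and not of transcripts, as it takes no account of the lengths of the genes. From wild type to overexpression it rose 1.43-fold, and the log2 ratio of sh1 to sus1 went from -2.12 ± 0.04 to -2.63 ± 0.02 (SD, n = 2). From wild type to the knockout the ratio of sus1 to sh1 differed 1.07-fold. With 2 libraries against 2, the exact two-sided permutation test cannot give less than p = 0.333, the value that each of the 3 comparisons reached.

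**Figure D2:**
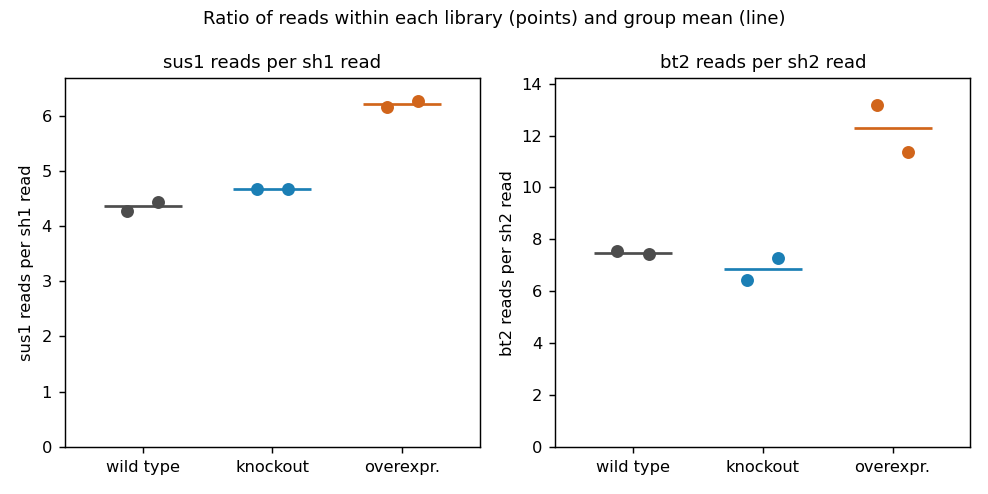
Reads of sus1 per read of sh1 (left) and of bt2 per read of sh2 (right) in each library (points) and their group means (lines), by genotype. Both ratios are highest in the 2 overexpression libraries, at 6.16 and 6.26 for the sucrose synthases and 13.2 and 11.4 for the ADP-glucose pyrophosphorylase subunits.

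The ADP-glucose pyrophosphorylase genes sh2 and bt2, which encode the large and the small subunit of the endosperm enzyme, were called in opposite directions in overexpression. The small subunit gene bt2 drew 1033 and 1054 reads in wild type, 1054 and 969 in the knockout and 1134 and 1261 in overexpression, or 44.6 and 46.5 CPM, 43.9 and 43.5 CPM, and 54.3 and 53.0 CPM. Both overexpression libraries were above all others, and the knockout libraries lay just below those of wild type. The level rose in overexpression to a mean of 53.7 ± 0.900 CPM, from 45.6 ± 1.35 CPM in wild type (both SD, n = 2), with a log2 fold change of 0.24 ± 0.06 (SE; edgeR adjusted p = 0.0033), or 1.18-fold with a 95% interval of 1.08 to 1.28. Without wild type replicate 1 this call narrowly missed the threshold (adjusted p = 0.0515). Against the knockout, at 43.7 ± 0.294 CPM (SD, n = 2), the overexpression level was 1.23-fold higher (adjusted p = 0.00033, edgeR). Knockout and wild type did not overlap for bt2, and the test did not call the difference (log2 fold change -0.06, 95% interval -0.19 to 0.07, adjusted p = 0.641, edgeR).

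The large subunit gene sh2 was read far less often, with 137 and 142 reads in wild type, 164 and 133 in the knockout and 86 and 111 in overexpression. These were 5.92 and 6.27 CPM, 6.83 and 5.96 CPM, and 4.12 and 4.67 CPM. The overexpression libraries were the lowest, and the knockout libraries overlapped with wild type. From 6.09 ± 0.248 CPM in wild type the level fell to 4.39 ± 0.389 CPM in overexpression (SD, n = 2), with a log2 fold change of -0.47 ± 0.18 (SE; edgeR adjusted p = 0.0465), or 0.723-fold with a 95% interval of 0.561 to 0.931. This call lies close to the threshold and was lost in 10 of the 14 alternative settings, among them DESeq2 (adjusted p = 0.159), limma-voom (adjusted p = 0.0735) and the fit with the replicate number as a block (adjusted p = 0.0515). Over all 14 the adjusted p lay between 0.0446 and 0.227; the log2 fold change stayed between -0.56 and -0.38. Against the knockout, at 6.39 ± 0.609 CPM (SD, n = 2), the log2 fold change was -0.54 ± 0.18 (SE; edgeR adjusted p = 0.0220), a call lost with DESeq2 (adjusted p = 0.0996), without knockout replicate 1 (adjusted p = 0.168) and without overexpression replicate 1 (adjusted p = 0.141). For knockout against wild type the log2 fold change was 0.07 with a wide 95% interval of -0.28 to 0.42 (adjusted p = 0.870, edgeR). Changes of the sizes within that interval are not excluded.

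Per read of sh2 there were 7.54 and 7.42 reads of bt2 in wild type, 6.43 and 7.29 in the knockout and 13.2 and 11.4 in overexpression. The overexpression libraries stood apart, while knockout and wild type differed little beside the spread of the knockout pair. The ratio of bt2 to sh2 was 1.63-fold higher in overexpression than in wild type and 1.79-fold higher than in the knockout. The log2 ratio of sh2 to bt2 was -2.90 ± 0.02 in wild type, -2.77 ± 0.13 in the knockout and -3.61 ± 0.15 in overexpression (SD, n = 2), and the exact two-sided permutation test again gave its smallest possible value, p = 0.333.

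The debranching gene su1, which encodes an isoamylase, drew 1139 and 1064 reads in wild type, 1192 and 1026 in the knockout and 856 and 926 in overexpression. In CPM these were 49.2 and 47.0, 49.6 and 46.0, and 41.0 and 38.9. Both overexpression libraries lay below the other 4, and the knockout libraries enclosed those of wild type. The level fell in overexpression to a mean of 39.96 ± 1.45 CPM, from 48.1 ± 1.57 CPM in wild type (both SD, n = 2), with a log2 fold change of -0.27 ± 0.07 (SE; edgeR adjusted p = 0.0018), or 0.830-fold with a 95% interval of 0.757 to 0.911. This call held in all 14 alternative settings. Against the knockout, at 47.8 ± 2.55 CPM (SD, n = 2), the log2 fold change was -0.26 ± 0.07 (SE; edgeR adjusted p = 0.0027), and it was not called without knockout replicate 1 (adjusted p = 0.0755). Knockout and wild type were not distinguished for su1 (log2 fold change -0.01, 95% interval -0.14 to 0.12, adjusted p = 0.969, edgeR).

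The granule-bound starch synthase gene wx1, whose product makes amylose in endosperm and pollen, was hardly read in these ears and gave no stable difference. It drew 1 and 33 reads in wild type, 10 and 12 in the knockout and 37 and 19 in overexpression, or 0.0432 and 1.46 CPM, 0.416 and 0.538 CPM, and 1.77 and 0.799 CPM. The wild-type libraries enclosed both knockout libraries and overlapped with overexpression. Their exact 95% Poisson intervals, 0.0253 to 5.57 reads and 22.7 to 46.3 reads, do not meet, so the wild-type pair differed by more than counting error, which is all that these intervals cover. No comparison called wx1, with log2 fold changes of -0.64 in the knockout (adjusted p = 0.670) and 0.77 in overexpression (adjusted p = 0.387) against wild type and 1.41 between the lines (adjusted p = 0.115, edgeR). The 2 values against wild type rest on which wild-type library is kept. With wild type replicate 1 left out they were -1.60 and -0.19, and with wild type replicate 2 left out 3.31 and 4.72, the last of these called (adjusted p = 0.0029). Limma-voom turned the direction in the knockout, to a log2 fold change of 0.69 that was not called, and called the overexpression change, at 1.95 (adjusted p = 0.0498). Overexpression was called above the knockout without the low-count filter (adjusted p = 0.0295), in the fit of these 2 groups alone (adjusted p = 0.0444) and without overexpression replicate 2 (adjusted p = 0.0431).

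**Figure D3:**
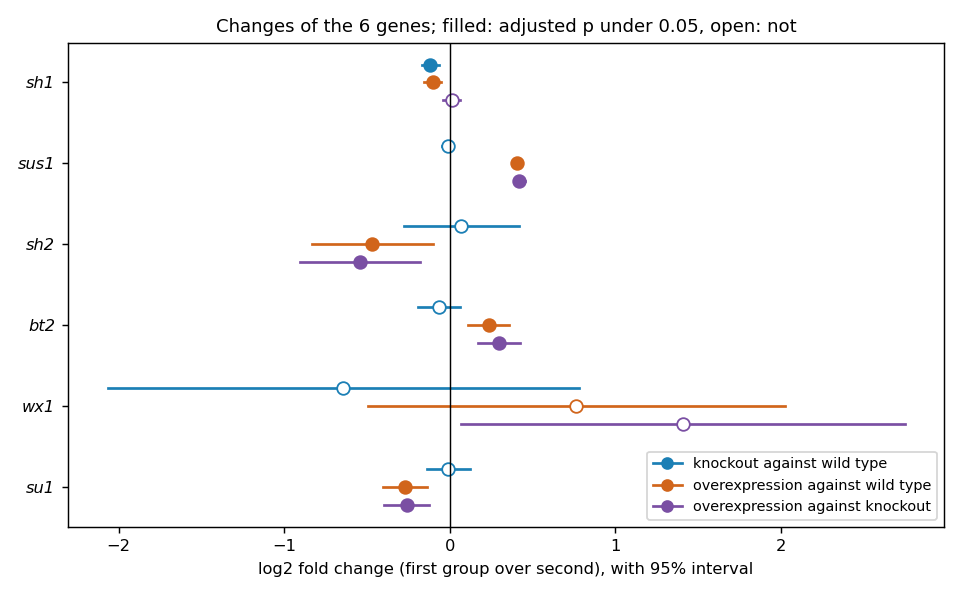
Log2 fold change of each gene (points) with its 95% interval (lines) in the 3 comparisons, filled where the adjusted p was under 0.05. The intervals are narrow for sus1 and sh1, and widest for wx1, from -2.07 to 0.78 in the knockout against wild type.

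The order of the levels thus differed between the genes. For sus1 and bt2 overexpression was highest, and for su1 and sh2 it was lowest, with knockout and wild type not distinguished by the test in these 4 genes. For sh1 wild type was highest, with knockout and overexpression not distinguished. Groups did not overlap for 2 of the 6 genes between knockout and wild type, where 49.2% of all tested genes did not overlap. They did not overlap for 5 genes between overexpression and wild type and for 5 between overexpression and knockout, beside 63.2% and 61.1% of all tested genes.

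The median size of the log2 change of the 6 genes was 0.07 in the knockout and 0.34 in overexpression, beside 0.11 and 0.17 over all tested genes. As calls depend on expression, the shares within each expression group are given beside these counts. The highest group is broad, with a median of 90.1 CPM, so most of its genes lie far below sus1 and sh1. Among the 20 genes with the most reads, which include sus1, 15 were called lower and 0 higher in the knockout. In overexpression 5 of them were called higher and 10 lower. In the highest of the 4 expression groups, which holds sus1 and sh1, 20% were called in the knockout and 52.1% in overexpression. In the next group, with bt2 and su1, the shares were 7.81% and 32.2%, in that of sh2 they were 4.55% and 22.4%, and in the lowest, with wx1, 1.71% and 10%. The changes in overexpression were of unequal rank within these groups. Of the genes of the same group, 2.84% had a larger log2 fold change than sus1 and 13.2% than bt2. A lower one than su1 was seen for 9.99%, than sh2 for 6.62% and than sh1 for 23.7%. In the knockout 12.5% of the genes of its group had a lower log2 fold change than sh1.

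**Figure D4:**
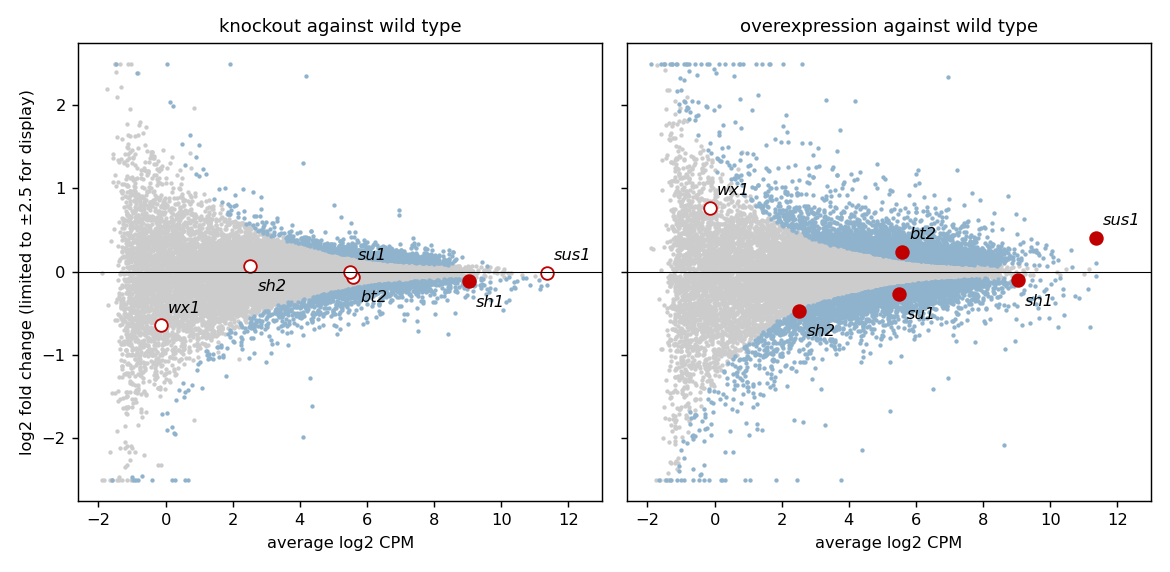
Log2 fold change against average log2 CPM for all 22947 tested genes in the knockout (left) and overexpression (right) against wild type. Called genes are blue, others grey, and the 6 genes red, filled where called; values beyond 2.5 are drawn at that limit. In overexpression sus1 stands at the far right, at 0.41.

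The genes whose levels followed sus1 and sh1 most closely were sought by Pearson's correlation of log2 CPM over the 6 libraries, among 19676 other genes of at least 1 log2 CPM. The nearest to sus1 were Zm00001d034839 (r = 0.999), at 95.7 and 96.9 CPM in overexpression and 47.5 and 46.1 CPM in wild type, and Zm00001d014377 (r = 0.999), at 306 and 301 CPM and 195 and 199 CPM. Their knockout levels, 45.3 and 47.4 CPM and 195 and 199.5 CPM, stayed near wild type, and the main difference among their values is the step between overexpression and the other 4 libraries. Their log2 fold changes in overexpression against wild type were 1.04 and 0.62. The nearest to sh1 were Zm00001d018359 (r = 0.998), with wild-type levels of 229 and 215 CPM, knockout levels of 188 and 199 CPM and overexpression levels of 199.96 and 193 CPM, and Zm00001d017615 (r = 0.993), at 14.3 and 11.9, 8.70 and 9.73, and 9.82 and 9.55 CPM. Their log2 fold changes against wild type were -0.20 and -0.51 in the knockout and -0.18 and -0.44 in overexpression. All 4 genes were picked for their likeness over these same libraries, so their differences between genotypes follow from the choice and are given without a test. The files do not name these genes.

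**Figure D5:**
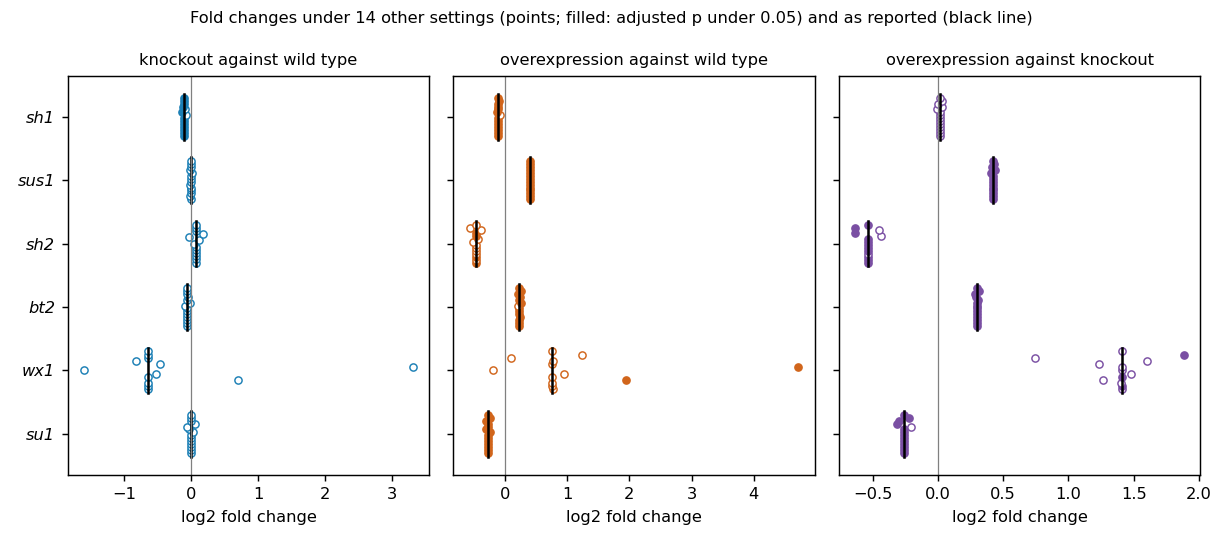
Log2 fold change of each gene in the 3 comparisons under the alternative settings (points, filled where the adjusted p was under 0.05) and as reported (black lines), on a linear axis that differs between panels. The values of sus1 in overexpression stay close to 0.41, while those of wx1 against wild type run from -1.60 to 3.31 in the knockout.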

How the data were processed

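The authors' deposited table gives an unnormalized count of reads for each gene in 6 libraries: its values are whole numbers, and the totals differ between libraries. Trimmomatic 0.35, HISAT2 2.1.0, HTSeq, StringTie and edgeR 3.32.1 are named, per the submitters' processing notes, with no statement of what each did. Genome build, annotation, counting options and strand setting were not given in the sources used here. Reads of overlapping, antisense or near-identical genes, as relatives within the sucrose synthase family could be, therefore cannot be separated. Every sample column was used (0 left out).

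After edgeR's filterByExpr (minimum count 10) and TMM scaling (factors 0.991 to 1.01), edgeR 4.0.16 in R 4.3.3 fitted 3 group means to the 6 libraries together by quasi-likelihood. With 3 residual degrees of freedom against 33.2 of the prior, the spread assigned to a gene came mostly from all genes. Over all genes the median log2 fold change was -0.005 to 0.001. Standard errors equal the log2 fold change divided by the root of F, and 95% intervals use a t distribution. For log2 ratios 0.5 read was added to each count, and for correlations log2 CPM had a prior count of 2. Simulated counts served to check the test. Alternative settings comprised RLE factors, no filter, a filter of 1 CPM in 2 libraries, limma-voom (limma 3.58.1), DESeq2 1.42.0, fits restricted to the groups compared, a replicate block and omission of each library, which leaves a lone library assumed to vary like the others; robust dispersions were added after the data were seen.

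The members and lists were chosen with earlier results of these data known. Beside the 6 genes, the rule named the 2 genes closest by correlation to each of the 2 members with the highest mean CPM. Names were looked up in the RefSeq gene table of the B73 reference (NAM 5.0), which holds 0 of the 43789 Zm00001d identifiers, so the lists of other pathway genes and of tissue markers gave no values.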

Additional observations from a re-analysis of the deposited data

How the results depend on the processing

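Called genes among the 6 numbered 1 for knockout against wild type, 5 for overexpression against wild type and 4 for overexpression against knockout. An equal number could stand for other genes: limma-voom called wx1 in place of sh2 for overexpression against wild type. The numbers changed by no more than 1.5 times with RLE factors, both other filters, DESeq2 and limma-voom. They stayed within the same limit with fits restricted to 2 groups, the replicate block and robust dispersions. With single libraries omitted, they were 0 to 1, 2 to 5 and 2 to 5. The lowest came without wild type replicate 1 (0 genes for the knockout and 2 for overexpression) and without knockout replicate 1 (0 genes for the knockout and 2 for the comparison of both lines); fewer libraries were then tested. Replicate numbers did not pair the libraries: same-numbered libraries of different genotypes deviated from their means with correlations of -0.00862, -0.0139 and 0.00772. The replicate block gave 1, 4 and 4 called genes, the lost one being sh2.

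Of 248 values of single genes under the 14 alternatives, 140 belonged to the 10 calls and so could lose one. Of these 140, 18 lost the call, 13 of them for sh2. Among the remaining values 5 gained a call, each for wx1. Among the alternatives to the 10 calls, 0 values changed sign. DESeq2 gave no adjusted p for sh2 in the knockout or for wx1 in any comparison. Adding 0 in place of 0.5 read moved both within-library ratios by less than the spread between replicates. With 2 libraries a group, omitting 1 cannot move a mean by more than that spread, so the ranges are given as values only. With single libraries omitted, the log2 sh1 to sus1 ratio differed by -0.54 to -0.48 for overexpression against wild type, -0.131 to -0.0740 for knockout against wild type and -0.42 to -0.40 for overexpression against knockout. For sh2 to bt2 the differences were -0.81 to -0.60, 0.0384 to 0.218 and -0.94 to -0.73; the knockout value, 0.128 with all libraries, was 0.0384 without knockout replicate 1. Read numbers were lowest for wx1 (1 to 37 reads a library) and sh2 (86 to 164 reads), and what part they have in the changes of these calls was not tested.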
